A study of Homo sapiens with 24 samples.

Results

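Chromatin-modifying enzymes write, erase and exchange the chemical marks on DNA and on histone tails that set which genes are open to transcription. The genes described here were taken by name from the deposited expression tables: every entry whose symbol begins as a lysine demethylase (KDM), zinc-dependent deacetylase (HDAC), lysine acetyltransferase (KAT), SET-domain methyltransferase (SETD, SMYD, SUV39H, EHMT, EZH1, EZH2), sirtuin (SIRT), arginine methyltransferase (PRMT), DNA methyltransferase (DNMT1, DNMT3) or TET dioxygenase, apart from 1 demethylase that is not included. This gave 83 of 26249 genes, of which 79 code for enzymes or their close relatives and 4 are noncoding entries named after one. The rule used no measured value.

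The libraries came from H929 and MM1S, established cell lines of multiple myeloma, a cancer of plasma cells. Cells received YKL-5-124, the compound used in this study of inhibiting CDK7, a kinase of transcription and the cell cycle, or the solvent DMSO, for 6 h or 24 h. The dose on the labels is 83 nM in H929 and 98 nM in MM1S, and the DMSO libraries of each line carry the same figure. The 8 groups were H929 with YKL-5-124 at 6 h and at 24 h, H929 with DMSO at the same times, MM1S with YKL-5-124 at 6 h and at 24 h, and MM1S with DMSO at the same times, with 3 libraries each. No genotype change or other agent is named. The labels do not say whether the 3 libraries of a group came from separate cultures, so p-values measure the spread between these libraries only.

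RNA was read by QuantSeq, which sequences the 3′ end of each transcript. The values are FPKM (fragments scaled to transcript length and between libraries) per library, with the sequencing depth unknown. Because the reads lie at the 3′ end, levels of different genes are compared here only on the deposited per-length scale. Between 7958 and 10843 genes reached 1 FPKM in a library. The 92 spiked-in ERCC transcripts, synthetic RNAs added to each sample, were held nearly level by the deposited scaling, and the sum of gene FPKM over the sum of ERCC FPKM ran from 2.52 to 17.1. By group mean that ratio was lowest in MM1S at 24 h, at 2.72 ± 0.259 with YKL-5-124 and 3.87 ± 1.61 with DMSO (SD, n = 3 each). Each comparison is therefore given on the deposited scale and again after each library was rescaled by the median ratio of 6014 well-measured genes, which asks how a gene moved relative to the typical gene. Fewer cells and less RNA per cell cannot be told apart in such samples. Plasma cell and myeloma markers had a summed level of 1079 to 8433 FPKM over 8 genes. Not each of these genes was high: CD38 averaged 0.696 ± 0.396 FPKM in MM1S with DMSO at 24 h, against 12.6 ± 1.36 FPKM in H929 (SD, n = 3 each). The sums were 0.462 to 4.33 FPKM for the 4 measured T-cell markers and 0.386 to 3.75 FPKM for the 5 monocyte markers. The 5 epithelial and fibroblast markers summed to 0.550 to 33.8 FPKM. KRT18, a keratin among them, averaged 16.1 ± 7.90 FPKM in H929 with YKL-5-124 and 26.99 ± 1.54 FPKM with DMSO at 24 h, against 0.117 ± 0.0964 FPKM in MM1S with DMSO (SD, n = 3 each). EPCAM averaged 0.108 ± 0.00106 FPKM in those H929 DMSO libraries. FGFR3, whose locus is rearranged in H929, averaged 23.8 ± 0.776 FPKM in H929 DMSO libraries of 24 h and 0.235 ± 0.0619 FPKM in those of MM1S (SD, n = 3 each). On the deposited scale MAF and ITGB7, listed as markers of MM1S, were not higher in MM1S beyond their spread in the same libraries. MAF averaged 16.4 ± 6.78 FPKM in MM1S and 16.2 ± 2.11 FPKM in H929, and ITGB7 2597 ± 1304 and 5953 ± 1251 FPKM. The factor by which each library was divided in the rescaling averaged 0.539 in those MM1S libraries and 1.765 in those of H929. Levels of these markers relative to the typical gene are therefore not read from the deposited values. With DMSO at 6 h MAF averaged 45.2 ± 13.2 FPKM in MM1S and 20.7 ± 2.86 FPKM in H929.

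After the data were seen, 3 libraries were doubted. The log2 deviations of the spiked-in transcripts had an SD of 0.964 in replicate 2 of MM1S with YKL-5-124 at 6 h, and of 0.580 in replicate 1 of MM1S with DMSO at 24 h, against 0.155 to 0.329 in the other libraries. H929 YKL-5-124 24 h replicate 2 had the lowest overall level of its group, with a rescaling factor of 0.671 against 1.09 and 1.30 in the other two. MM1S DMSO libraries of 24 h also differed in level: replicate 2 had a rescaling factor of 0.808, against 0.445 and 0.365 in replicates 1 and 3. Replicate 3 had the fewest genes at 1 FPKM, 7958. Replicates 2 and 3 of that group were not among the doubted libraries, so leaving those out does not remove its spread. Where a comparison rests on the 3 doubted libraries and called members as deposited, its count is given with and without them. Rescaled counts were made with all libraries only. How many of all genes were called with libraries left out was not counted, so such counts are not read as a trait of the members.

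The families work as opposed pairs. DNMT1 copies DNA methylation onto newly made strands, DNMT3A and DNMT3B lay it down anew, and TET enzymes oxidise it. Histone methyltransferases include EZH2 and EZH1, the catalytic subunits of polycomb repressive complex PRC2, and SUV39H1 and SUV39H2, which build heterochromatin; lysine demethylases such as KDM1A (LSD1) take methyl groups away. Acetyltransferases open chromatin, and deacetylases of the HDAC and sirtuin families close it. Inhibitors of HDACs, EZH2 and PRMT5 have been developed as drugs in blood cancers.

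Of the 83 genes, 73 had at least 1 FPKM in 3 or more of the 24 libraries and entered the test. The other 10 (8 protein-coding and 2 noncoding) never exceeded 0.930 FPKM. They include DNMT3L, the catalytically inactive partner of DNMT3A and DNMT3B, the muscle enzyme SMYD1 and the brain enzyme PRMT8, which shared 1 value in every library, between 0.0575 and 0.163 FPKM. TET3 ranged from 0.212 to 0.930 FPKM and KAT5, the TIP60 acetyltransferase, from 0.0598 to 0.626 FPKM. At the other end PRMT1, which deposits most asymmetric dimethylarginine in mammalian cells, had a median of 817 FPKM over the 24 libraries, followed by HDAC3 with 107 FPKM and HDAC1 with 85.8 FPKM. Deacetylases of class I and their NCoR or Sin3 partners are present in nearly all cell types.

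Tests were made with limma on log2(FPKM + 1) over 12418 genes, all 24 libraries sharing 1 estimate of spread. A gene is called where the Benjamini-Hochberg adjusted p is under 0.05. A log2 change on this scale understates the change of genes near 1 FPKM.

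In H929 at 24 h, 27 of the 73 tested genes were lower with YKL-5-124 and none was higher on the deposited scale. Of all genes tested, 38.1% were called in that comparison, 35.4% as lower and 2.67% as higher, so the members' share of 37.0% was near the background. The median log2 change was -0.48 over the members and -0.46 over all genes. After rescaling, 7 members remained lower and 14 were called higher, where 33.3% of all genes were called, 12.5% lower and 20.8% higher. Leaving out treated replicate 2 gave 16 calls as deposited, and leaving out all 3 doubted libraries gave 13 lower and 1 higher, SIRT5. The 7 that were lower on both scales were DNMT1, DNMT3B, SUV39H1, KDM1A, KAT8, SETD1A and the noncoding entry PRMT5-AS1.

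DNMT1 had 24.04, 12.95 and 24.8 FPKM in H929 with YKL-5-124 at 24 h, against 77.5, 75.9 and 66.4 FPKM with DMSO. All treated libraries lay below all DMSO libraries. The log2 change was -1.83 ± 0.30 (SE; limma adjusted p = 8.13e-05), and -1.01 after rescaling (adjusted p = 3.42e-05).

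DNMT3B had 0.586, 0.380 and 0.948 FPKM with YKL-5-124, against 3.27, 4.09 and 4.21 FPKM with DMSO, again without overlap. Its mean was 0.165 of the DMSO mean (log2 change -1.58 ± 0.24, limma adjusted p = 3.82e-05). DNMT3A, the other de novo methyltransferase, averaged 1.25 ± 0.335 FPKM with YKL-5-124 and 1.85 ± 0.462 FPKM with DMSO (SD, n = 3 each), and its log2 change of -0.34 ± 0.24 did not pass the test (limma adjusted p = 0.29). TET1 and TET2 did not pass it either, with log2 changes of -0.29 and 0.02.

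SUV39H1, on the X chromosome, had 1.12, 0.623 and 1.68 FPKM with YKL-5-124, against 5.04, 5.94 and 6.86 FPKM with DMSO. The groups did not overlap, and the treated mean was 0.192 of the DMSO mean (log2 change -1.72 ± 0.29, limma adjusted p = 0.000102). Its autosomal relative SUV39H2 was lower on the deposited scale only, at -1.12 ± 0.31 (adjusted p = 0.00643; after rescaling -0.53, adjusted p = 0.125). EHMT1 and EHMT2, which form the G9a-GLP dimer that methylates the same histone residue, did not pass the test, at -0.48 and -0.59.

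EZH2 had 11.8, 7.06 and 13.2 FPKM in H929 with YKL-5-124 at 24 h, against 21.1, 25.3 and 19.7 FPKM with DMSO. The groups did not overlap and the log2 change was -1.02 ± 0.27 (limma adjusted p = 0.00526). Relative to the typical gene the change was -0.23 and was not called (adjusted p = 0.335), and without H929 YKL-5-124 24 h replicate 2 and the other 2 doubted libraries it was -0.77 (adjusted p = 0.0574). EZH1, the PRC2 subunit of resting cells, had a log2 change of -0.34 ± 0.31 (adjusted p = 0.401).

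Among the demethylases KDM1A, which removes methyl groups by an FAD-dependent reaction within the CoREST complex, had 2.68, 3.19 and 3.25 FPKM with YKL-5-124, against 9.04, 9.80 and 8.85 FPKM with DMSO. The treated libraries were close together and all below the DMSO libraries (log2 change -1.34 ± 0.20, limma adjusted p = 2.26e-05). KDM2B, which recruits a variant polycomb complex to CpG islands, was lower at -1.22 ± 0.24 (adjusted p = 0.000519), and at -0.53 after rescaling (adjusted p = 0.0572). KDM8 and KDM2A were the other demethylases called lower as deposited, and the remaining 11 of 15 tested demethylases were not called. Of all genes, 35.4% were lower as deposited in that comparison.

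The acetyltransferase KAT8 (MOF), which acetylates histone H4 in the MSL and NSL complexes, had 1.16, 1.16 and 2.03 FPKM with YKL-5-124, against 4.50, 6.67 and 5.42 FPKM with DMSO. The groups were apart (log2 change -1.42 ± 0.32, limma adjusted p = 0.00151). KAT6A, KAT7 and KAT2A were lower as deposited, with log2 changes of -0.79, -0.70 and -0.76, and after rescaling had changes of 0.03, -0.04 and 0.05, none of them called. KAT2B (PCAF) went the other way: 4.21, 4.24 and 5.54 FPKM with YKL-5-124, against 2.21, 3.23 and 1.83 FPKM with DMSO. Its groups did not overlap, but the deposited change of 0.74 ± 0.31 did not pass the test (adjusted p = 0.0665). The rescaled change of 1.29 did (adjusted p = 0.00117).

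SETD1A, a catalytic subunit of the COMPASS complexes that methylate histone H3 at active promoters, had 3.45, 1.94 and 3.89 FPKM with YKL-5-124, against 6.72, 10.1 and 8.12 FPKM with DMSO. Its paralog SETD1B had 8.62, 3.83 and 8.10 FPKM with YKL-5-124, against 10.4, 12.3 and 8.87 FPKM with DMSO. SETD1A groups were apart and SETD1A was called lower (-1.20 ± 0.25, limma adjusted p = 0.000756), while SETD1B, whose groups were apart too and whose lowest library was the doubted treated replicate 2, had a change of -0.61 ± 0.26 that was not called (adjusted p = 0.0679). Lysine methyltransferases as a family had 10 of 20 tested members lower as deposited, where 35.4% of all genes were. After rescaling 2 were lower (SUV39H1 and SETD1A) and 2 higher (SETD9 and SMYD3).

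PRMT1 had 578, 419.6 and 825 FPKM with YKL-5-124, against 1133, 1578 and 1455 FPKM with DMSO. No treated library reached a DMSO library (log2 change -1.23 ± 0.30, limma adjusted p = 0.00309), and relative to the typical gene the change was -0.39 (adjusted p = 0.0946). Arginine methyltransferases had 3 of 7 tested members lower as deposited (PRMT1, PRMT2 and PRMT3), near the 35.4% of all genes. After rescaling none of these was called and PRMT7 was higher.

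The entry PRMT5-AS1 had 59.5, 36.5 and 77.7 FPKM with YKL-5-124, against 176, 239.6 and 204 FPKM with DMSO, without overlap (log2 change -1.87 ± 0.28, limma adjusted p = 3.77e-05). PRMT5 itself, which makes symmetric dimethylarginine, ranged from 0.0789 to 1.41 FPKM over all 24 libraries. In the GENCODE 29 annotation of GRCh38 an exon of PRMT5-AS1 lies over the last 500 bases of PRMT5 on the opposite strand, and the reverse holds too. Whether the authors counted reads by strand is not given in the sources used here, so RNA of PRMT5 and of PRMT5-AS1 cannot be told apart in these values. KAT5 has the same arrangement with RNASEH2C, and the same limit holds for its low values. In all, 11 of the 82 genes matched to that annotation have an exon of another gene over their last 500 bases. EHMT2, SETD6, KAT7, HDAC7, SIRT5, PRMT1 and PRMT7 are among those named here.

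Among the deacetylases, 2 of 11 zinc-dependent enzymes (HDAC1 and HDAC2) and 1 of 7 sirtuins (SIRT6) were lower as deposited. Of all genes, 35.4% were lower in that comparison. HDAC1 averaged 83.03 ± 22.8 FPKM with YKL-5-124 and 130.2 ± 13.1 FPKM with DMSO (SD, n = 3 each). Its change of -0.68 ± 0.25 (limma adjusted p = 0.0362) turned to 0.16 after rescaling, which was not called. SIRT5, a mitochondrial desuccinylase, had 10.9, 5.72 and 10.5 FPKM with YKL-5-124, against 5.04, 5.43 and 5.16 FPKM with DMSO. Its groups did not overlap, and it was called after rescaling (1.31, limma adjusted p = 2.85e-05). As deposited its change of 0.65 ± 0.29 was not called with all libraries (adjusted p = 0.0789) and was called without the 3 doubted ones (0.91, adjusted p = 0.0354). With all libraries, 20.8% of all genes were higher after rescaling. The 14 members called higher on the rescaled scale and not as deposited were KDM3B, KDM4A, KDM4B, KDM4C, KDM5A, KDM5B, HDAC5, HDAC7, HDAC11, SIRT5, KAT2B, PRMT7, SETD9 and SMYD3, with rescaled changes of 0.31 to 1.31. The KDM3, KDM4 and KDM5 demethylases among them had deposited changes between -0.44 and 0.24, none of them called.

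**Figure D1:**
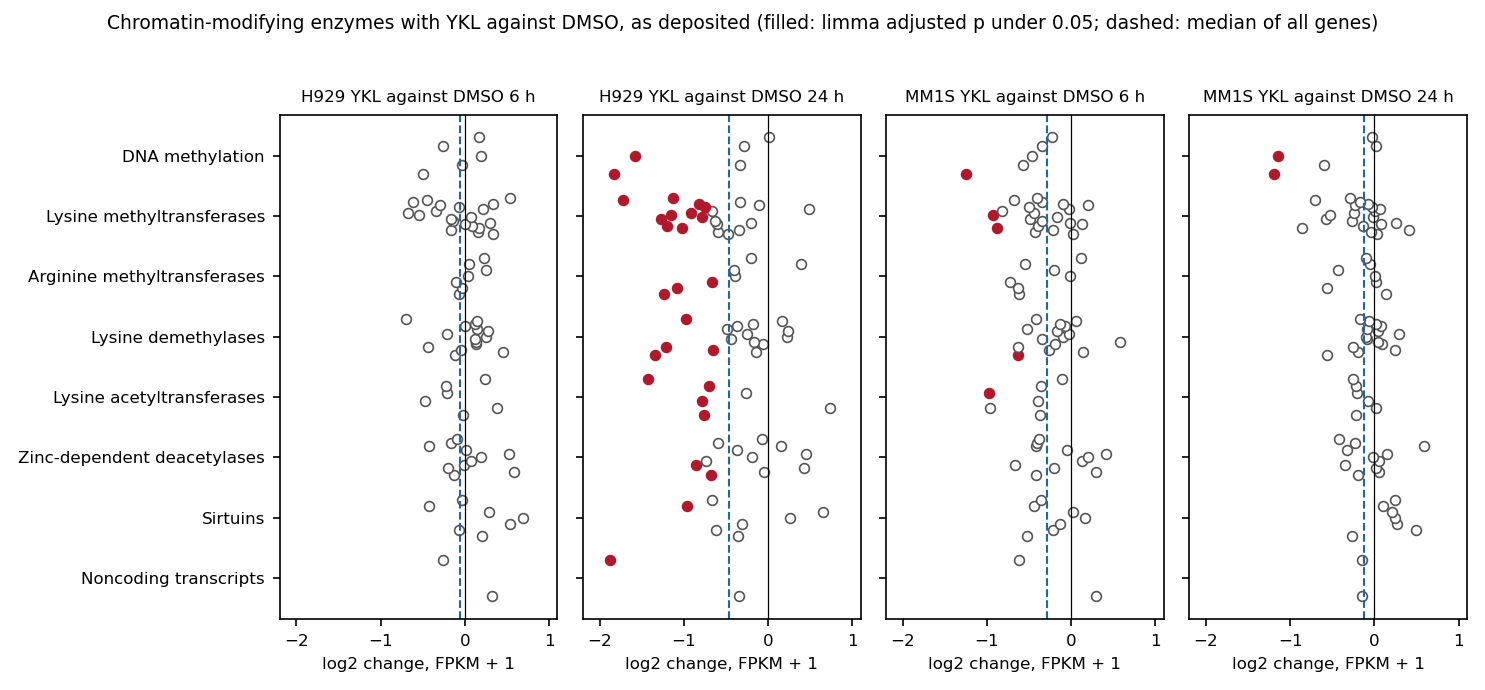
Each point is 1 of the 73 tested genes, placed by its log2 change (log2 of FPKM + 1, YKL-5-124 minus DMSO, deposited scale) in 4 comparisons and by enzyme family, filled where limma's adjusted p is under 0.05; the dashed line is the median of all 12418 genes. The 27 filled points of H929 at 24 h lie left of that median, and DNMT1 and DNMT3B are the 2 filled points of MM1S at 24 h.

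Promoter sequences from RefSeq (GRCh38.p14, 250 bases before to 50 after the annotated start; the deposited values were made on hg19) are shown for DNMT1, EZH2 and KDM1A, whose RNA was lower as deposited in H929 at 24 h and in MM1S at 6 h. Capitals mark the letters TTGGCGC, an E2F-type element bound by factors that time gene expression to DNA replication, and CCAAT boxes (their reverse complement is ATTGG), which are bound by NF-Y. The minus-strand genes are written in their own 5′ to 3′ direction.
DNMT1, chr19:10194904-10195203, minus strand: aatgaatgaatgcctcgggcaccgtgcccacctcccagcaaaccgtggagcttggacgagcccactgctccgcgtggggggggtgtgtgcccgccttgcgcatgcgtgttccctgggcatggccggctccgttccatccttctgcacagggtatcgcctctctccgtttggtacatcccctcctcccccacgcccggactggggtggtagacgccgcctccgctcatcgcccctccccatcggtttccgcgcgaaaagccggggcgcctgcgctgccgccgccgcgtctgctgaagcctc
EZH2, chr7:148884242-148884541, minus strand: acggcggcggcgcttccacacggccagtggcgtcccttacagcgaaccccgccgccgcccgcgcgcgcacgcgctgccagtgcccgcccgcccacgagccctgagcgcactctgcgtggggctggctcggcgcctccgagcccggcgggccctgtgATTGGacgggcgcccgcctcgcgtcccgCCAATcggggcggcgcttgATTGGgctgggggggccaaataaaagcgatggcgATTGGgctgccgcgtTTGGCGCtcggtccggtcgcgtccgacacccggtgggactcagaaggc
KDM1A, chr1:23019218-23019517, plus strand: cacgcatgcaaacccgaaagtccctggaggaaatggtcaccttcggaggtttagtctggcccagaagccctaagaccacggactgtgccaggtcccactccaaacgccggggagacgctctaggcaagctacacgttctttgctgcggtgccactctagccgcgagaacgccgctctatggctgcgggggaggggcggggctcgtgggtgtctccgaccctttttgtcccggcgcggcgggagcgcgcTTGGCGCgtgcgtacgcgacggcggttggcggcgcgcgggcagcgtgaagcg

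The EZH2 window holds 1 TTGGCGC and 4 CCAAT boxes, the KDM1A window 1 TTGGCGC, and the DNMT1 window none of the letters searched. Both strands were searched for the E2F-type letters TTGGCGC and for their variant TTCCCGC, for the CHR element with its letters TTTGAA, for the CCAAT box and for the E-box, whose letters are CACGTG. A window was found for 75 of the 83 genes. TTGGCGC or TTCCCGC was found in 6 of 25 windows (24.0%) of genes lower in H929 at 24 h as deposited, in 10 of 68 (14.7%) of the tested members, and in 9.23% of all 35116 windows. The CCAAT box was in 11 of the 25 (44.0%), in 33.8% of the tested members and in 34.6% of all windows. Of the 7 genes lower in H929 at 24 h after rescaling, 6 had a window. TTGGCGC or TTCCCGC was in 1 of these 6 (16.7%) and the CCAAT box in 2 (33.3%). The windows of DNMT3B and SUV39H1, lower on both scales and not shown, held no E2F-type letters. SETD6 was lower as deposited in the same comparisons as the genes shown. Its window, not shown, held 1 TTGGCGC, 1 CCAAT box and 1 E-box. These matches describe letters in a window and were not tested.

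In H929 at 6 h none of the 73 members was called by limma as deposited, where 2.19% of all genes were, and 6 had an unadjusted p under 0.05. After rescaling 9.3% of all genes were called, 5.11% higher and 4.19% lower. DNMT1 had 45.8, 60.6 and 57.1 FPKM with YKL-5-124, against 54.1, 110.0 and 76.6 FPKM with DMSO, and these overlapped. EZH2 averaged 22.05 ± 1.26 FPKM with YKL-5-124 and 19.96 ± 5.26 FPKM with DMSO (SD, n = 3 each). SIRT3, the main mitochondrial deacetylase, had 13.4, 18.6 and 19.1 FPKM with YKL-5-124, against 10.6, 11.0 and 12.4 FPKM with DMSO, and these did not overlap. It was the 1 member called after rescaling (log2 change 0.68, limma adjusted p = 0.0171), and its deposited change of 0.54 ± 0.26 was not called (adjusted p = 0.335).

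The response of H929 at 24 h minus that at 6 h was itself tested, and 7 of the 73 members were more negative at 24 h, where 6.47% of all genes were called, 6.18% as more negative. DNMT3B led, with a difference of -1.77 ± 0.34 (limma adjusted p = 0.0047), followed by KAT8, SUV39H2, PRMT5-AS1, SETD1A, KDM1A and SMYD4 at -1.66 to -1.15. DNMT3B had 2.47, 5.02 and 4.002 FPKM with YKL-5-124 at 6 h, against 2.87, 3.07 and 3.46 FPKM with DMSO at 6 h, and these overlapped. DNMT3B and PRMT5-AS1 were also called after rescaling, as was DNMT1 (-0.70, adjusted p = 0.0398). On that scale 4 members were more positive at 24 h (HDAC7, PRMT7, SIRT5 and SMYD3, at 0.79 to 1.22), where 5.77% of all genes were more positive and 4.66% more negative. Without the 3 doubted libraries 2 members were called, and leaving out single libraries gave 2 to 11. The 2 came without 6 h YKL-5-124 replicate 2 or 3, 24 h YKL-5-124 replicate 2 or 24 h DMSO replicate 2, and 11 without 6 h YKL-5-124 replicate 1 or 24 h YKL-5-124 replicate 3. Without 6 h DMSO replicate 1 there were 3, and without 24 h DMSO replicate 3 there were 4.

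In MM1S at 6 h, 5 of the 73 members were lower and none higher as deposited (6.85%), where 11.0% of all genes were called, 10.0% as lower and 0.926% as higher. They were DNMT1, EZH2, KDM1A, KAT6B and SETD6, all but KAT6B also lower in H929 at 24 h. DNMT1 had 22.3, 15.2 and 18.3 FPKM with YKL-5-124, against 47.3, 44.3 and 43.4 FPKM with DMSO. The groups were far apart, and the treated mean was 0.413 of the DMSO mean (log2 change -1.25 ± 0.30, limma adjusted p = 0.0112; rescaled -0.79, adjusted p = 0.00149).

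EZH2 had 10.5, 10.3 and 16.03 FPKM in MM1S with YKL-5-124 at 6 h, against 24.3, 22.8 and 22.1 FPKM with DMSO, without overlap (log2 change -0.88 ± 0.27, limma adjusted p = 0.0384). KAT6B (MORF), a MYST acetyltransferase, had 1.80, 1.96 and 1.09 FPKM with YKL-5-124, against 4.89, 3.13 and 4.46 FPKM with DMSO, also without overlap (log2 change -0.98 ± 0.27, adjusted p = 0.0247). Without the 3 doubted libraries 3 of the 5 were called (DNMT1, KAT6B and SETD6), and leaving out single libraries gave 1 call without YKL-5-124 replicate 2 or DMSO replicate 1, 2 without YKL-5-124 replicate 3, 3 without DMSO replicate 2, and up to 6 otherwise. Relative to the typical gene, DNMT1 and SETD6 were lower and 8 members were higher, where 7.21% of all genes were lower and 8.25% higher. Among the higher were the demethylase KDM4A (0.99, adjusted p = 0.000273) and HDAC3 (0.59, adjusted p = 0.00211). KDM4A had 10.5, 9.06 and 9.72 FPKM with YKL-5-124, against 6.55, 7.40 and 4.91 FPKM with DMSO, and those groups did not overlap.

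In MM1S at 24 h the DNA methyltransferases DNMT1 and DNMT3B were the 2 members called as deposited, both lower (2.74% of the 73), where 7.46% of all genes were called and 6.77% as lower. DNMT3B had 0.302, 0.611 and 0.610 FPKM with YKL-5-124, against 2.50, 3.24 and 1.44 FPKM with DMSO. No treated library reached a DMSO library, and the treated mean was 0.212 of the DMSO mean (log2 change -1.14 ± 0.24, limma adjusted p = 0.00349; rescaled -1.33, adjusted p = 1.94e-05). DNMT1 had 7.49, 9.76 and 10.1 FPKM with YKL-5-124, against 23.3, 34.5 and 13.03 FPKM with DMSO, also apart (log2 change -1.19 ± 0.30, adjusted p = 0.0143). The DMSO libraries of this group spread widely, and the DNMT1 call was lost without YKL-5-124 replicate 1 or without DMSO replicate 2, with adjusted p of 0.0892 and 0.0882, the highest of its alternatives. The count of 2 became 1 without YKL-5-124 replicate 1 and 6 without DMSO replicate 3. Without the 3 doubted libraries both calls held, at -1.15 (adjusted p = 0.027) and -1.10 (adjusted p = 0.0144).

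EZH2 had 4.54, 6.26 and 6.33 FPKM in MM1S with YKL-5-124 at 24 h, against 11.3, 16.9 and 7.05 FPKM with DMSO. SUV39H1 had 0.337, 0.616 and 0.519 FPKM with YKL-5-124, against 1.20, 2.73 and 0.728 FPKM with DMSO. Both sets of groups were apart, but neither gene was called as deposited (EZH2 -0.86 ± 0.27, limma adjusted p = 0.0534; SUV39H1 -0.70 ± 0.29, adjusted p = 0.167). Both were called after rescaling, at -0.65 (adjusted p = 0.00638) and -0.76 (adjusted p = 0.0147). Relative to the typical gene 11 members were higher, where 14.4% of all genes were higher and 13.3% lower, among them HDAC7 (0.87), SIRT2 (0.79) and EZH1 (0.72). EZH1 and EZH2 had changes of opposite sign on that scale, and EZH1 had 5.83, 7.07 and 6.03 FPKM with YKL-5-124, against 3.17, 8.15 and 3.34 FPKM with DMSO, which overlapped.

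**Figure D2:**
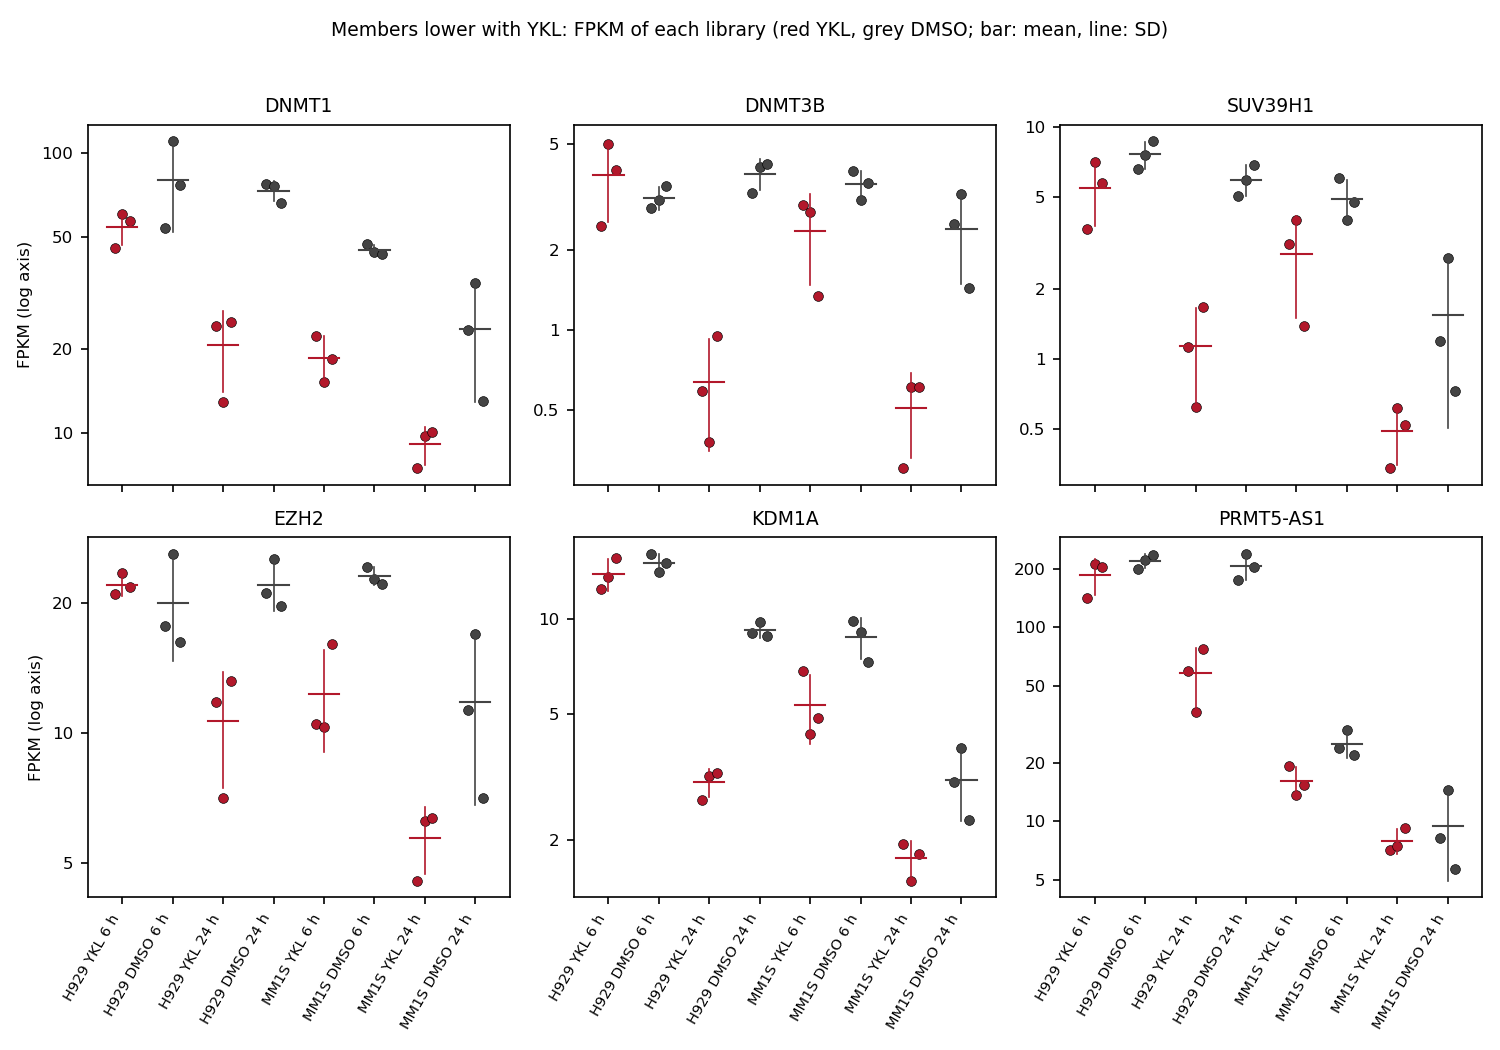
FPKM on a log axis of 6 genes in each of the 24 libraries, YKL-5-124 in red and DMSO in grey, with the group mean as a bar and the SD as a vertical line (n = 3). DNMT1 and DNMT3B lie below their DMSO groups at 24 h in both lines, while PRMT5-AS1 does so in H929 and overlaps in MM1S at that time.

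Across the 4 YKL-5-124 comparisons, each of which has DMSO libraries of its own, 28 members were lower in at least 1 as deposited, 5 in at least 2 (DNMT1, DNMT3B, EZH2, KDM1A and SETD6) and 1, DNMT1, in 3. Of all genes, 1.16% and 35.4% were lower as deposited in H929 at 6 h and 24 h, and 10.0% and 6.77% in MM1S. After rescaling, 9 members were lower in at least 1 comparison, DNMT1, DNMT3B and SUV39H1 in at least 2, and DNMT1 in 3. In the same order of comparisons, 4.19%, 12.5%, 7.21% and 13.3% of all genes were lower after rescaling. On that scale 25 members were higher in at least 1 comparison and 8 in at least 2 (HDAC3, HDAC5, HDAC7, KDM4A, KDM5A, SETD5, SIRT3 and SMYD3). Of all genes, 5.11%, 20.8%, 8.25% and 14.4% were higher in that order. How many of all genes were called in 2 or more comparisons was not counted, so these repeats are not read as a trait of the members. KDM5A, a demethylase of active promoters, was higher after rescaling in 3 comparisons, at 0.51 in H929 at 24 h, 0.40 in MM1S at 6 h and 0.58 in MM1S at 24 h. As deposited, its changes were -0.25, -0.03 and 0.29, and limma called none of them.

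**Figure D3:**
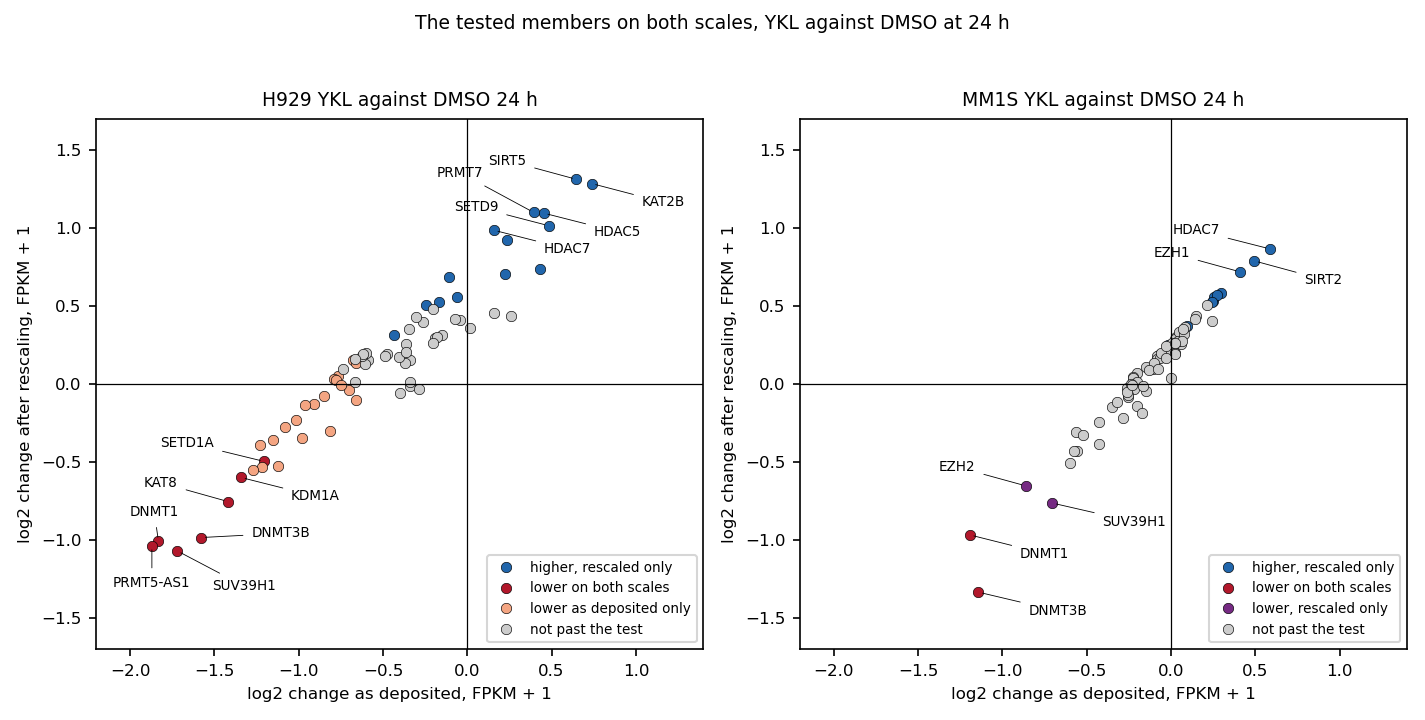
Log2 change of the 73 tested genes at 24 h on the deposited scale (horizontal) and after rescaling by the median ratio (vertical), both log2 of FPKM + 1 and YKL-5-124 minus DMSO, for H929 and MM1S. In H929 rescaling leaves 7 genes lower and 14 higher, and in MM1S 4 lower and 11 higher.

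Genes that act with these enzymes moved as follows. Of 12 partners in DNA methylation, 7 were lower in H929 at 24 h, 4 in MM1S at 6 h and 3 in MM1S at 24 h as deposited, where 35.4%, 10.0% and 6.77% of all genes were lower. The rescaled counts of lower genes were 3, 3 and 4, where 12.5%, 7.21% and 13.3% were, and 2, 1 and 1 were higher. UHRF1, which brings DNMT1 to hemimethylated DNA, averaged 0.906 ± 0.294 FPKM with YKL-5-124 and 8.63 ± 2.38 FPKM with DMSO in H929 at 24 h, and 0.278 ± 0.227 and 4.16 ± 2.36 FPKM in MM1S at 24 h (SD, n = 3 each). Its log2 changes were -2.32 ± 0.31 (limma adjusted p = 9.24e-06) and -1.89 ± 0.31 (adjusted p = 0.000313). It was lower in MM1S at 6 h too (-1.50 ± 0.31, adjusted p = 0.0043).

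Of 9 partners of EZH1 and EZH2 in PRC2, 6 were lower in H929 at 24 h and 2 in MM1S at each time as deposited, with rescaled counts of 2, 3 and 4 for the same comparisons in the order H929 24 h, MM1S 6 h, MM1S 24 h. The shares of all genes lower in these comparisons are those given for the DNA methylation partners. In H929 at 6 h 1 was lower on each scale, where 1.16% of all genes were lower as deposited and 4.19% after rescaling. PHF19, which guides PRC2 to chromatin, averaged 296 ± 116 FPKM with YKL-5-124 and 857 ± 108 FPKM with DMSO in H929 at 24 h, and 35.5 ± 5.93 and 102 ± 35.7 FPKM in MM1S (SD, n = 3 each). It was lower on both scales in H929 at 24 h (-1.60, rescaled -0.76) and in MM1S at 24 h (-1.46, rescaled -1.20), with limma adjusted p of 0.000135 and 0.0014 as deposited. The scaffold subunit EED was lower as deposited in H929 at 24 h (-1.02, adjusted p = 0.00495) and in MM1S at 6 h (-1.03, adjusted p = 0.0172).

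Among enzymes outside the name rule, HAT1, which acetylates newly made histone H4, was lower in H929 at 24 h (-1.38 ± 0.29, limma adjusted p = 0.000807) and in MM1S at 24 h (-1.51 ± 0.29, adjusted p = 0.0015). WHSC1 (NSD2), the methyltransferase joined to the immunoglobulin locus in H929, averaged 135 ± 43.6 FPKM with YKL-5-124 and 89.3 ± 6.85 FPKM with DMSO in H929 at 24 h, and 5.27 ± 1.03 and 12.6 ± 5.40 FPKM in MM1S (SD, n = 3 each). In MM1S it was lower (-1.06, adjusted p = 0.0132). In H929 its change was 0.53 (adjusted p = 0.115), and 1.36 after rescaling (adjusted p = 1.17e-09). Of 19 corepressor partners of HDAC1 to HDAC3, 9 were lower in H929 at 24 h as deposited and none after rescaling, when 5 were higher. Of all genes in that comparison 35.4% were lower as deposited and 20.8% higher after rescaling. JMJD6, a JmjC-domain hydroxylase, was lower in MM1S at 6 h (-1.44 ± 0.26, limma adjusted p = 0.00161) and had -0.06 there at 24 h.

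Markers of proliferating cells were counted beside these enzymes. Of 16 such genes (PCNA and the MCM2 to MCM7 replication genes among them), 16 were lower in H929 at 24 h, 12 in MM1S at 6 h and 16 in MM1S at 24 h, against 1 in H929 at 6 h, with median log2 changes of -2.55, -1.19, -2.32 and -0.48 in that order. In the same order 35.4%, 10.0%, 6.77% and 1.16% of all genes were lower, and the 73 members had median changes of -0.48, -0.34, -0.07 and 0.003. After rescaling the marker counts were 16, 12, 16 and 5, where 12.5%, 7.21%, 13.3% and 4.19% of all genes were lower. PCNA, which also stands in the list of DNA methylation partners, had log2 changes of -2.37, -2.06 and -2.61 in the first 3. Their part in the levels of DNMT1, DNMT3B, EZH2 and SUV39H1 was not tested.

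The treated lines were also set against each other. The H929 response minus the MM1S response at 6 h gave no call among the 73 members by limma, where 0.169% of all genes were called (0.0322% more negative in H929) and 5 members had an unadjusted p under 0.05. After rescaling 1.14% of all genes were called and no member. At 24 h it gave 1, PRMT5-AS1 at -1.72 ± 0.40 (limma adjusted p = 0.0341), where 1.36% of all genes were called and 1.07% as more negative in H929. After rescaling 4 members were called, 2 more negative and 2 more positive, where 4.32% of all genes were more negative and 8.04% more positive. PRMT5-AS1 was among them, at -1.15 (limma adjusted p = 6.89e-05). PRMT5-AS1 had 7.09, 7.50 and 9.28 FPKM in MM1S with YKL-5-124 at 24 h, against 8.24, 14.6 and 5.72 FPKM with DMSO, and those groups overlapped. The deposited count of 1 became 0 without the 3 doubted libraries and 18 without MM1S DMSO 24 h replicate 2. How many of all genes were called in those runs was not counted, so these counts are not read as a trait of the members. The response of DNMT1 differed between the lines by -0.64 ± 0.43 at 24 h (adjusted p = 0.405) and that of DNMT3B by -0.44 ± 0.34 (adjusted p = 0.48). The MM1S response at 24 h minus that at 6 h gave no call among the members as deposited, where 0.0805% of all genes were called (0.0322% more positive, 0.0483% more negative) and 2 members had an unadjusted p under 0.05. It gave 1 after rescaling, DNMT3B at -1.21 (limma adjusted p = 0.00538). On that scale 10.6% of all genes were called, 4.3% more positive and 6.28% more negative.

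Without the compound the lines differed in many of these enzymes. H929 was above MM1S in 42 of the 73 members and below it in 5, over the DMSO libraries of both times, where 72.0% of all genes were called (61.7% higher, 10.3% lower). After rescaling 9 were higher in H929 and 31 lower (26.6% and 41.1% of all genes), so the general direction depended on the scale. The 9 higher on both were PRMT5-AS1, KAT6A, KDM5B, SETD3, SIRT6, PRMT1, SMYD3, SETD1B and KDM6B. The 5 lower on both were HDAC9, TET1, DNMT3A, HDAC8 and KDM7A.

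KAT6A (MOZ), a MYST acetyltransferase known from leukaemia translocations, had 60.8, 91.03 and 77.4 FPKM in H929 at 6 h and 73.2, 69.5 and 59.01 FPKM at 24 h with DMSO, against 9.56, 10.1 and 6.19 FPKM and 4.01, 7.69 and 3.02 FPKM in MM1S. The lowest H929 library was several times the highest MM1S library (log2 difference 3.31 ± 0.20, limma adjusted p = 8.70e-13; rescaled 2.15). Its paralog KAT6B differed by 0.26 ± 0.19 (adjusted p = 0.236).

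KDM5B, which removes the methyl mark of active promoters, had 6.10, 6.29 and 6.87 FPKM in H929 at 6 h and 5.23, 7.36 and 5.87 FPKM at 24 h, against 0.616, 0.515 and 0.307 FPKM and 0.657, 0.939 and 0.247 FPKM in MM1S (log2 difference 2.25 ± 0.14, limma adjusted p = 3.28e-12). Every MM1S library was under 1 FPKM for this gene. KDM5A, of the same group, differed by 0.38 ± 0.19 as deposited (adjusted p = 0.078) and by -0.72 after rescaling (adjusted p = 3.71e-07). SMYD3 averaged 29.4 ± 5.02 and 25.5 ± 1.59 FPKM in H929 at 6 h and 24 h, against 9.44 ± 0.582 and 5.01 ± 1.61 FPKM in MM1S (SD, n = 3 each).

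In the other direction HDAC9, a class IIa deacetylase expressed in lymphocytes, had 1.49, 1.57 and 1.16 FPKM in H929 at 6 h and 1.74, 2.17 and 1.83 FPKM at 24 h, against 5.38, 7.88 and 6.42 FPKM and 3.81, 4.38 and 1.68 FPKM in MM1S. At 6 h the lines were apart, and at 24 h 1 MM1S library lay below the H929 libraries (log2 difference over both times -1.07 ± 0.17, limma adjusted p = 8.35e-06). TET1 had 0.411, 0.598 and 0.588 FPKM in H929 at 6 h, against 3.11, 1.96 and 2.36 FPKM in MM1S (-0.89 ± 0.14, adjusted p = 3.25e-06), and every H929 DMSO library was under 1 FPKM. DNMT3A differed by -0.70 ± 0.17 (adjusted p = 0.00095) and HDAC8 by -0.66 ± 0.19 (adjusted p = 0.00347).

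**Figure D4:**
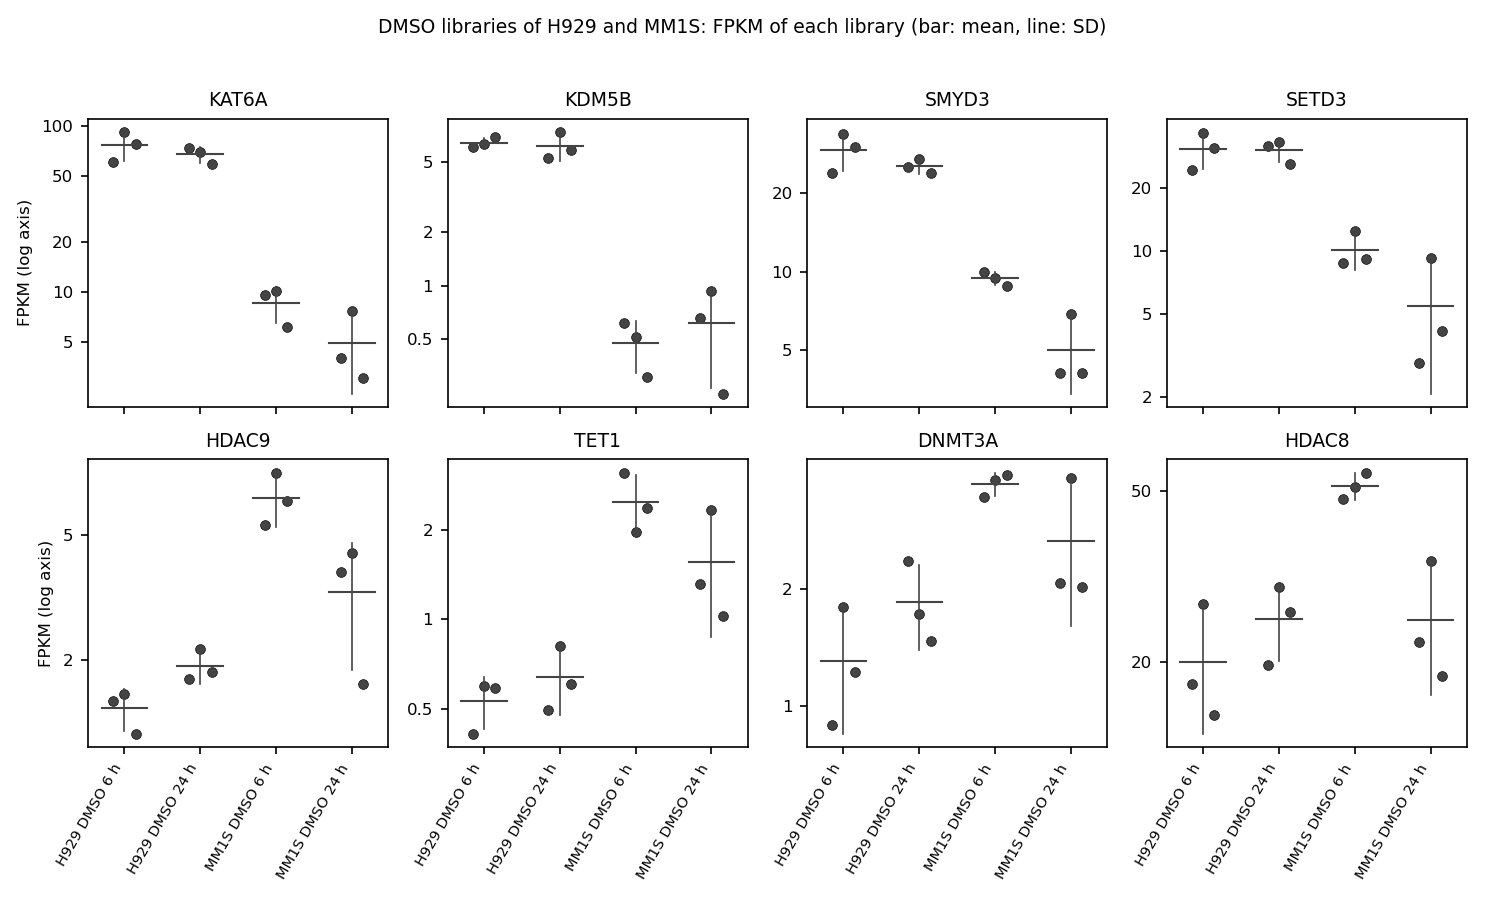
FPKM on a log axis in the 12 DMSO libraries for 4 genes higher in H929 (top) and 4 lower in H929 (bottom), with group means as bars and SD as vertical lines (n = 3). KAT6A and KDM5B separate the lines without overlap at both times.

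In H929 with DMSO no member differed between 24 h and 6 h by limma, where 0.145% of all genes were called (0.105% higher, 0.0403% lower) and 5 members had an unadjusted p under 0.05. In MM1S with DMSO 44 of the 73 were lower at 24 h than at 6 h, where 56.2% of all genes were called and 56.0% as lower, and 28 were called without 24 h replicate 3. Without the 3 doubted libraries 35 were lower as deposited. After rescaling 5 members were lower and 14 higher, where 5.39% of all genes were lower and 10.3% higher. PRMT1 had 122, 346 and 175 FPKM in MM1S with DMSO at 24 h, against 827, 895 and 809 FPKM at 6 h, without overlap. Its change was -2.11 ± 0.30 (limma adjusted p = 7.90e-05; rescaled -0.92, adjusted p = 0.00242). SETD6, SIRT6, KDM2A and SETD1A were also lower on both scales. The ratio of gene FPKM to ERCC FPKM in these DMSO libraries was 3.87 ± 1.61 at 24 h and 9.13 ± 1.17 at 6 h (SD, n = 3 each), and its part in these calls was not tested.

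Over all 24 libraries the log2 levels most like those of EZH2 among the members were those of DNMT1 (Pearson r = 0.924), SETD1A (0.870) and SETD5 (0.869) as deposited, and of DNMT3A (0.668), DNMT3B (0.657) and SIRT1 (0.655) after rescaling. The 24 points share 8 groups and, on the first scale, the overall level of each library, so these values describe likeness only.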

How the data were processed

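RNA of 24 libraries (2 lines, 2 treatments, 2 times, 3 replicates) was sequenced by 3′-end QuantSeq. HISAT2 and Cuffnorm, with the hg19 build, are named in the submitters' processing notes, without versions, and the deposited values are FPKM per gene made by the authors. How Cuffnorm was scaled and whether strand was used are not given in the sources used here. No value was 0, and depth is unknown.

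From these, log2(FPKM + 1) was tested with limma 3.58.1 (R 4.3.3) in 11 comparisons of group means over genes with 1 FPKM in 3 libraries, with Benjamini-Hochberg adjustment. Simulated data were used to check the fit. Alternatives were median-of-ratios rescaling, a pseudocount of 0.1, no filter, a replicate block, leaving out each library and, chosen after seeing the data, leaving out 3 doubted libraries. The members and lists were chosen with earlier results of these data known. Named were the 6 largest called rises and falls of each YKL-5-124 comparison, the 3 largest of each sign in the others, a set list of well-known enzymes, and up to 4 called genes of each partner list. Members called only after rescaling, full lists of called members, and SETD1B, SIRT2, SIRT3, SIRT5 and SMYD4 were named after their values were seen. No pair of libraries was identical.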

Additional observations from a re-analysis of the deposited data

Results flagged for a closer look

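Tests of the difference between responses singled out 8 results, all on the deposited scale with limma's adjusted p. The response of PRMT5-AS1 to YKL-5-124 at 24 h was more negative in H929 than in MM1S, with a log2 difference of -1.72 (adjusted p = 0.0341). In H929 the response at 24 h was more negative than that at 6 h for DNMT3B (-1.77, adjusted p = 0.0047), KAT8 (-1.66, adjusted p = 0.0317), SUV39H2 (-1.66, adjusted p = 0.0264), PRMT5-AS1 (-1.61, adjusted p = 0.0213), SETD1A (-1.29, adjusted p = 0.0327), KDM1A (-1.23, adjusted p = 0.0118) and SMYD4 (-1.15, adjusted p = 0.0428). After rescaling, the adjusted p stayed under 0.05 for DNMT3B and for both PRMT5-AS1 differences.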

How the results depend on the processing

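Of the members called lower as deposited, 7 of 27 in H929 at 24 h, 0 of 5 in MM1S at 6 h and 1 of 2 in MM1S at 24 h (DNMT3B) kept their call under every alternative run. Counts of called members moved by over 1.5 times as follows, with the cause not tested. Apart from rescaling, the share of all genes called under these alternatives was not counted. Rescaling gave 1 in H929 at 6 h, 10 in MM1S at 6 h, 15 in MM1S at 24 h, 4 for the line difference at 24 h, 1 for the time difference of the MM1S response and 19 for MM1S DMSO over time. A pseudocount of 0.1 gave 5 in MM1S at 24 h and 0 for the line difference at 24 h. No filter gave 2 in MM1S at 6 h, 0 for the line difference and 3 for the time difference of the H929 response. Leaving out the 3 doubted libraries gave 14 in H929 at 24 h (against 27), 3 in MM1S at 6 h, 0 for the line difference and 2 for the time difference in H929. The replicate block gave 3 in MM1S at 6 h and 0 for the line difference at 24 h; replicate numbers did not pair the libraries, with same-number correlations of -0.11 to 0.18 over 12 pairs and 2 libraries best matched to their own number.

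With 1 library left out, counts ran from 16 to 33 in H929 at 24 h (16 without YKL-5-124 replicate 2), 1 to 6 in MM1S at 6 h, 1 to 6 in MM1S at 24 h, 0 to 18 for the line difference at 24 h, 2 to 11 for the time difference of the H929 response, 47 to 53 for H929 against MM1S and 28 to 54 for MM1S DMSO over time (28 without 24 h replicate 3), and were 0 to 0 elsewhere.

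Rescaling turned the sign of 42 calls among the members (5 in H929 at 24 h, 18 for H929 against MM1S and 19 for MM1S DMSO over time), and of changes not called as deposited, such as KDM5A in H929 at 24 h. Of these calls, 24 were for genes under the naming rule. In H929 at 24 h they were HDAC1 (0.16), KAT2A (0.0517) and KAT6A (0.0342), besides KDM2A (0.13) and SETD5 outside that rule. For H929 against MM1S they were HDAC1 (-0.12), HDAC3 (-0.0833), HDAC7 (-0.48), KAT2A (-0.13), KAT7 (-0.19), KDM1A (-0.0288), SETD1A (-0.00579), SETD8 (-0.0347) and SMYD5 (-0.19). For MM1S DMSO at 24 h against 6 h they were DNMT1 (0.15), EZH2 (0.13), HDAC1 (0.21), HDAC2 (0.00838), HDAC3 (0.42), HDAC9 (0.0877), KAT6A (0.27), KDM5A (0.41), SETD2 (0.14), SIRT1 (0.0517), SMYD3 (0.21) and TET1 (0.32). Depth is unknown, and changes of genes near the smallest values could not be resolved.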

Other observations

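PRDM2, a methyltransferase of the RIZ type outside the name rule, was the 1 gene of 16 tested in the list of other histone methyltransferases that was higher in H929 at 6 h, at 1.17 ± 0.24 (limma adjusted p = 0.0106). In MM1S at 6 h it was 0.51 ± 0.24 as deposited (adjusted p = 0.17) and 0.93 after rescaling (adjusted p = 4.90e-05). It averaged 21.4 ± 5.06 FPKM with YKL-5-124 and 8.81 ± 0.648 FPKM with DMSO in H929 at 6 h (SD, n = 3 each). SAP30, a subunit of the Sin3 deacetylase complex, averaged 9.26 ± 6.60 FPKM with YKL-5-124 and 39.1 ± 2.27 FPKM with DMSO in MM1S at 6 h, a log2 change of -2.15 ± 0.36 (adjusted p = 0.000807). At 24 h its change there was -0.85 (adjusted p = 0.188). NCOA3, a coactivator with acetyltransferase activity, was not called as deposited at 24 h (0.51 in H929 and 0.77 in MM1S), and was higher after rescaling (1.28 and 1.11, limma adjusted p = 9.11e-07 and 6.44e-06).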
